A study of Rattus norvegicus with 22 samples.

Results

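The loop of Henle and the distal tubule reclaim salt after the proximal tubule, and the 10 genes described here are known for that work. They were chosen by name: Umod, Slc12a1, Kcnj1, Bsnd and Ptger3 for the thick ascending limb, and Slc12a3, Pvalb, Trpm6, Kcnj10 and Wnk4 for the distal convoluted tubule. Of the 10, 9 were found by their rat Entrez identifier among the 17334 genes of the kidney RNA sequencing data, and 8 passed the filter on low counts, which kept 12867 genes. Pvalb did not pass, and Trpm6 was not analysed here.

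The kidneys came from 22 male PKD/Mhm (Cy/+) rats, which all carry 1 copy of a missense mutation in Anks6 and develop polycystic kidneys. There were 6 untreated rats, 6 rats given human adipose-derived stromal cells (ASC) by the intraperitoneal route (i.p. ASC), 6 given ASC by the intravenous route (i.v. ASC) and 4 given the medium conditioned by these cells (ASC CM). Injections were monthly over 6 months, and total RNA of the left kidney was taken at an age of 8 months. The labels give no route for the medium, the methods of the study give the intravenous one and its summary the intraperitoneal one. All groups are cystic and there is no healthy rat among them, so each comparison is between treated and untreated cystic kidneys. The labels name each rat as an animal of its own, and rats are named below by their animal number. Total counts ran from 12195682 to 14734772 per rat.

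In the thick ascending limb, the cotransporter NKCC2 (Slc12a1) takes up sodium, potassium and chloride from the lumen, the channel ROMK (Kcnj1) returns potassium to it, and barttin (Bsnd) is needed for chloride to leave on the blood side. The same cells secrete uromodulin (Umod), the most abundant protein of normal urine, and carry the prostaglandin E2 receptor EP3 (Ptger3). In the distal convoluted tubule, the thiazide-sensitive cotransporter NCC (Slc12a3) takes up sodium and chloride under the control of the kinase Wnk4, and the basolateral channel Kir4.1 (Kcnj10) sets the membrane voltage that this control follows. Parvalbumin (Pvalb) is a calcium-binding protein used as a marker of the early distal convoluted tubule in the mouse, and Trpm6 is a magnesium channel. Kcnj1, Bsnd, Kcnj10 and Ptger3 are also known from neighbouring segments.

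The promoters of 4 genes are shown because these genes fall into both of the sets that varied together over the 22 rats, Umod with Slc12a1 and Slc12a3 with Bsnd. Each window is from RefSeq, build GRCr8, and runs from 250 bases before to 50 bases after the start site, written on the strand of the gene. Umod lies on the minus strand at chr1:183260967-183261266, Slc12a1 on the plus strand at chr3:132859409-132859708, Slc12a3 on the minus strand at chr19:10675001-10675300 and Bsnd on the minus strand at chr5:126489340-126489639. Capitals mark 3 short motifs on either strand, the nuclear receptor half-site AGGTCA, which reads TGACCT when it lies on the opposite strand, the TATA box TATAAA, which then reads TTTATA, and the HNF1 half-site GTTAAT, which then reads ATTAAC.
Umod: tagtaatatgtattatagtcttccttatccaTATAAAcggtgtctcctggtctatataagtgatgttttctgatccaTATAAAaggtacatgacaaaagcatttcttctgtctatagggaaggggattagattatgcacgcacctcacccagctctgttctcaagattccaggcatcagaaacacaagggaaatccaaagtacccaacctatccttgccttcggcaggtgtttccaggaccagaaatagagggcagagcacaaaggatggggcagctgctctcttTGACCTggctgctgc
Slc12a1: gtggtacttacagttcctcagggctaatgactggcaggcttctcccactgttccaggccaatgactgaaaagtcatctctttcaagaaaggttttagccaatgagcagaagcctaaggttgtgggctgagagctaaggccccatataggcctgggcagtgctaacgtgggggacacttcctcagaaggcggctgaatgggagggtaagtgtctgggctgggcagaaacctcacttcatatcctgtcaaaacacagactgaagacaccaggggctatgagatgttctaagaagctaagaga
Slc12a3: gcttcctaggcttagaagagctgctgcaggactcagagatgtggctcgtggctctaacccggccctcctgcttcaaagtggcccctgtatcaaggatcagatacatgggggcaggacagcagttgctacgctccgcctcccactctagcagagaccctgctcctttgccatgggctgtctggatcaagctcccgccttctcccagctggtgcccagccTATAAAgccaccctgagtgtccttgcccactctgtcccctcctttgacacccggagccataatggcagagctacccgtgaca
Bsnd: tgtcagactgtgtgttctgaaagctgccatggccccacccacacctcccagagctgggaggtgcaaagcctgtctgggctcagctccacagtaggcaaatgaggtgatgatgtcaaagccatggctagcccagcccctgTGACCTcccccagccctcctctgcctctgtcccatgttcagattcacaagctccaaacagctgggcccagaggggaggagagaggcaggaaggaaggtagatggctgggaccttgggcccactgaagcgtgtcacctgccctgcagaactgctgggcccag
The Slc12a3 window holds TATAAA with its first base 32 bases before the start site. Umod has this motif at 219 and at 173 bases before its start site, and TGACCT after it. Bsnd has TGACCT at 111 bases before the start site. The Slc12a1 window holds none of these letters. The HNF1 half-site is in none of the 4 windows. Over all 33469 rat promoters of this length, 16.2% hold the nuclear receptor half-site, 14.2% the TATA box and 7.45% the HNF1 half-site, and no motif overlapped another in the windows shown. A match of 6 letters describes the window and does not show a site in use.

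Measured as TPM, a relative transcript abundance that divides by transcript length so that genes can be set side by side, Umod was the highest of the 9 genes at 2208 ± 902 TPM (SD, n = 22), above 99.6% of the genes tested. Slc12a3 came next at 568 ± 233 TPM. Slc12a1 at 286 ± 137 TPM and Kcnj1 at 267 ± 45.3 TPM differed by less than their spread. Wnk4 at 106 ± 17.6 TPM and Bsnd at 87.6 ± 18.6 TPM were within about 1 SD of each other. Ptger3 had 51.8 ± 7.94 TPM and Kcnj10 16.3 ± 8.70 TPM. Pvalb stood at the bottom with 0.341 ± 0.781 TPM. These are levels in whole cystic kidney, where fewer cells of a segment and less RNA per cell cannot be told apart.

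Pvalb was at 0 in 17 of the 22 rats. The other rats were untreated rat 1 with 1.28 TPM, i.p. ASC rats 6 and 7 with 2.24 and 0.865 TPM, and i.v. ASC rats 8 and 14 with 2.81 and 0.315 TPM, from at most 10 counts. This marker of the early distal convoluted tubule was therefore at or near 0 in all 4 groups, while Slc12a3, the defining transporter of that tubule, was present in every rat at 181 TPM or more. No fold change is given for Pvalb.

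The spread between rats split the other genes. Over the 22 rats the highest TPM was 5.62 times the lowest for Slc12a1, 5.39 times for Kcnj10, 5.33 times for Slc12a3 and 5.25 times for Umod. On the log2(TPM + 1) scale their SDs of 0.69, 0.68, 0.71 and 0.63 were above those of 96.9%, 96.7%, 97.1% and 95.7% of the genes tested. Bsnd spanned 2.36 times, Wnk4 2.02 times, Kcnj1 1.90 times and Ptger3 1.71 times, with SDs of 0.32, 0.25, 0.25 and 0.23 against a median of 0.23 over all genes. Centred on the group means, the SD was still 0.64 for Umod, 0.69 for Slc12a1, 0.66 for Slc12a3 and 0.63 for Kcnj10, so most of the spread lay between rats that had the same treatment.

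**Figure D1:**
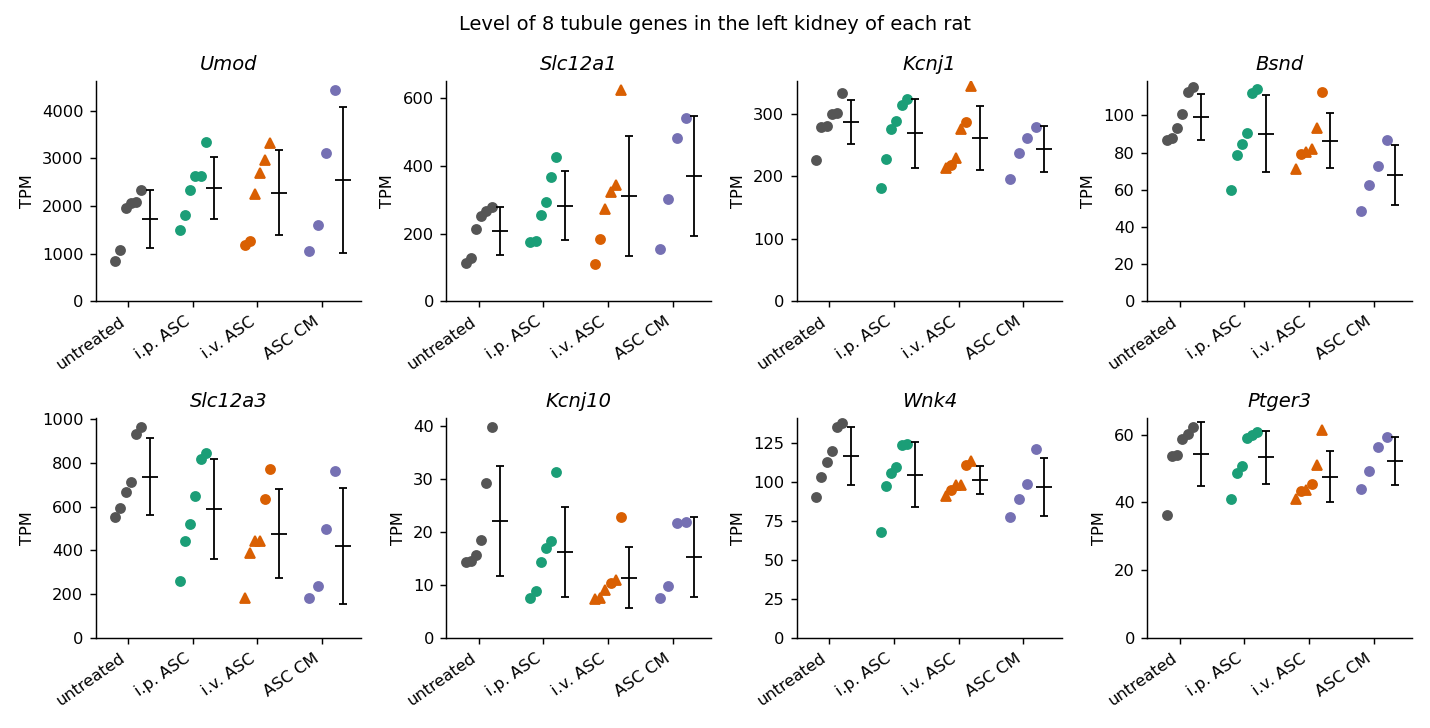
Level in TPM (vertical axis, linear from 0) of 8 genes in each of 22 rats by treatment group (horizontal axis). Points are rats, bars the group mean ± SD, and triangles the 4 i.v. ASC rats with high urothelial markers. The groups overlap for all 8 genes, and Umod, Slc12a1, Slc12a3 and Kcnj10 spread over more than 5 times within the series.

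The first question was whether ASC or their medium changed these transport genes. None of the 8 was called in any comparison by the quasi-likelihood test of edgeR, adjusted by Benjamini-Hochberg over 12867 genes, at 0.05. Over all genes, 0% were called against untreated rats in each of the 3 comparisons. In the test for any difference among the 4 groups 0.0855% were called (11 genes, no member). At an unadjusted p below 0.05 the count of members was 0 after i.p. ASC (3.89% of all genes), 1 after i.v. ASC (8.81%), 3 after ASC CM (6.6%) and 1 for any difference (4.11%). DESeq2 and limma called 0 members too, and over all genes DESeq2 called 0 genes after i.p. ASC, 28 genes after i.v. ASC and 4 genes with ASC CM. The median log2 fold change of the 8 members was -0.04 with i.p. ASC, -0.07 with i.v. ASC and -0.19 with ASC CM, against -0.01, -0.01 and -0.003 over all genes. Fitted values were above 0 for 3, 2 and 3 members and below 0 for 5, 6 and 5.

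Umod, the marker of the thick ascending limb, had 847, 2009 and 2347 TPM as the lowest, median and highest value of untreated rats. After i.p. ASC these were 1506, 2488 and 3348 TPM, and after i.v. ASC 1184, 2471 and 3331 TPM. The 4 ASC CM rats (2, 11, 19 and 21) had 4445, 3105, 1599 and 1063 TPM. The medians of the treated groups were higher, but the groups overlapped, and the highest and the second lowest value of the series were both in ASC CM rats. The log2 fold change from untreated was 0.55 ± 0.36 (SE) after i.p. ASC, 0.52 ± 0.36 after i.v. ASC and 0.67 ± 0.40 after ASC CM, with edgeR adjusted p of 0.771, 0.561 and 0.738. Without ASC CM rat 2, the highest of the series, the ASC CM value was 0.18.

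Slc12a1, the salt entry step of that segment, had 114, 232 and 279 TPM as lowest, median and highest in untreated rats. It had 175, 275 and 426 TPM after i.p. ASC, and 111, 299 and 624 TPM after i.v. ASC. The ASC CM rats 2, 11, 19 and 21 had 540.5, 483, 301 and 154 TPM. As for Umod, some treated rats lay above all untreated rats and others among the lowest of the series. The log2 fold change was 0.49 ± 0.37 (SE) after i.p. ASC, 0.66 ± 0.38 after i.v. ASC and 0.91 ± 0.41 after ASC CM. The last had an unadjusted p of 0.0395 and an edgeR adjusted p of 0.71. Without i.v. ASC rat 13, the i.v. ASC value was 0.38.

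The i.v. ASC values of both genes turned with 4 rats. In i.v. ASC rats 3, 9, 10 and 13 the mean log2(TPM + 1) of 5 of 7 urothelium markers (Upk1a, Upk1b, Upk2, Upk3a and Krt5) was 5.62, 6.54, 2.39 and 4.32, against at most 1.98 in any rat of the other groups and 0.63 and 0.52 in i.v. ASC rats 8 and 14. The summed TPM of these markers was 1.945 to 16.4 in untreated rats, 1.995 to 10.3 after i.p. ASC, 2.38 to 542 after i.v. ASC and 2.77 to 3.44 after ASC CM. Without these 4 rats, which leaves 2 i.v. ASC rats, the i.v. ASC fold change fell below 0 on the log2 scale, to -0.44 for Umod and -0.49 for Slc12a1 (edgeR adjusted p = 0.997 for each). Rats 8 and 14 had 1184 and 1261 TPM of Umod, and rats 3, 9, 10 and 13 had 3331, 2684, 2258 and 2977 TPM. The part of the urothelial markers in this difference was not tested.

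Bsnd, the gene of barttin, had 86.6, 96.9 and 115 TPM as lowest, median and highest in untreated rats, 59.7, 87.6 and 114 TPM after i.p. ASC, and 71.2, 81.2 and 113 TPM after i.v. ASC. The ASC CM rats 2, 11, 19 and 21 had 62.8, 48.8, 86.9 and 72.7 TPM. Of these 4, 3 lay below every untreated rat and rat 19 lay just above the lowest of them. The log2 fold change for ASC CM was -0.50 ± 0.15 (SE), with the smallest unadjusted p among the members, 0.00274, and an edgeR adjusted p of 0.71. With each rat left out in turn it stayed between -0.58 and -0.38. For i.p. ASC and i.v. ASC it was -0.07 ± 0.13 and -0.09 ± 0.13.

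Kcnj1 and Ptger3 varied little. Kcnj1, the potassium channel ROMK, had 227, 291 and 335 TPM in untreated rats, 181, 283 and 324 TPM after i.p. ASC, 214, 253 and 345 TPM after i.v. ASC, and 280, 238, 262 and 196 TPM in ASC CM rats 2, 11, 19 and 21. Its log2 fold changes were -0.02 ± 0.14, -0.03 ± 0.14 and -0.17 ± 0.16 (SE). Ptger3, the receptor EP3 for prostaglandin E2, had 36.3, 56.4 and 62.2 TPM in untreated rats, 41.0, 54.8 and 60.6 TPM after i.p. ASC, 40.9, 44.6 and 61.2 TPM after i.v. ASC, and 56.3, 59.3, 43.9 and 49.2 TPM in the ASC CM rats. Its log2 fold changes were 0.07 ± 0.14, -0.07 ± 0.14 and 0.03 ± 0.15. Each of these 6 differences was about the size of its standard error or smaller.

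In the distal convoluted tubule, Slc12a3 had 551, 690.5 and 965 TPM as lowest, median and highest in untreated rats. It had 259, 586 and 846 TPM after i.p. ASC, and 181, 443 and 770 TPM after i.v. ASC. The ASC CM rats 2, 11, 19 and 21 had 184, 239, 762 and 498 TPM. Every treated group reached lower than the lowest untreated rat and also into the untreated range. The log2 fold change was -0.24 ± 0.32 (SE) after i.p. ASC, -0.51 ± 0.32 after i.v. ASC and -0.79 ± 0.36 after ASC CM, the last with an unadjusted p of 0.0413 and an edgeR adjusted p of 0.71. Without the 4 i.v. ASC rats with urothelial markers, the i.v. ASC value was -0.003 (adjusted p = 0.999). Without i.v. ASC rat 13 alone it was -0.33.

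Kcnj10, the basolateral potassium channel, had 14.4, 17.1 and 39.9 TPM in untreated rats, 7.48, 15.7 and 31.3 TPM after i.p. ASC, 7.40, 9.78 and 22.8 TPM after i.v. ASC, and 7.60, 9.91, 21.9 and 21.7 TPM in ASC CM rats 2, 11, 19 and 21. Of the 6 i.v. ASC rats, 5 lay below every untreated rat and rat 14 lay within their range. This was the only member past an unadjusted p of 0.05 for i.v. ASC, with a log2 fold change of -0.85 ± 0.33 (SE), p of 0.0170 and an edgeR adjusted p of 0.523. The value was -1.11 without rat 14 and -0.36 without the 4 rats with urothelial markers. For i.p. ASC and ASC CM it was -0.38 ± 0.32 and -0.49 ± 0.37. Without untreated rat 23 the values were -0.14 after i.p. ASC, -0.61 after i.v. ASC and -0.24 after ASC CM.

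Wnk4, the kinase upstream of NCC, had 90.3, 117 and 138 TPM in untreated rats, 68.0, 108 and 124 TPM after i.p. ASC, 90.8, 98.1 and 114 TPM after i.v. ASC, and 77.3, 89.1, 121 and 98.8 TPM in ASC CM rats 2, 11, 19 and 21. The groups overlapped. Its log2 fold changes were -0.06 ± 0.12, -0.08 ± 0.12 and -0.21 ± 0.13 (SE), with edgeR adjusted p of 0.901, 0.777 and 0.755.

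**Figure D2:**
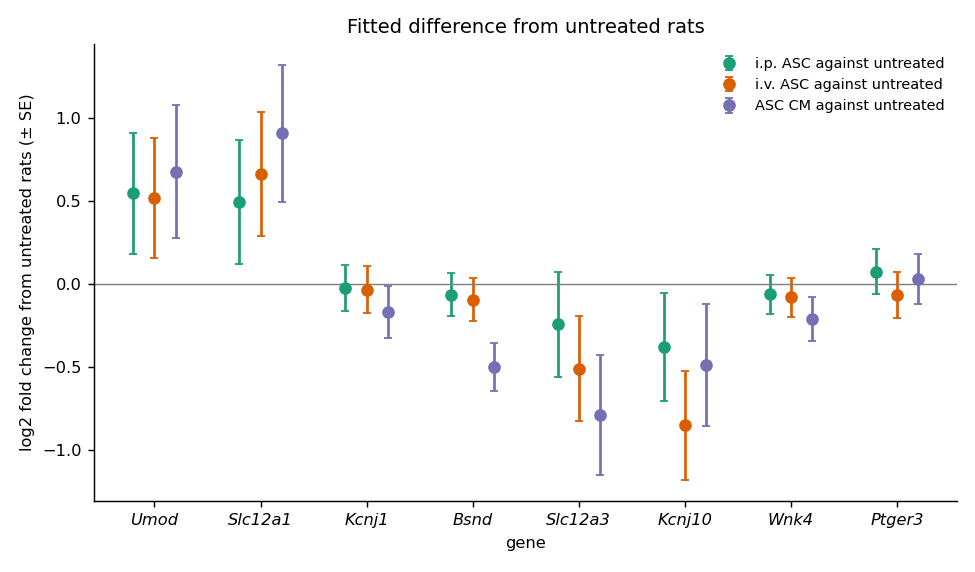
Fitted log2 fold change from untreated rats (vertical axis) with its standard error (bars) for 8 genes (horizontal axis) and 3 treatments (colours). Umod and Slc12a1 lie above 0 and Slc12a3 and Kcnj10 below 0 in each comparison, with none past the adjusted threshold and the i.v. ASC values of Umod and Slc12a1 below 0 without 4 i.v. ASC rats.

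The next question was whether the genes of the 2 segments moved together from rat to rat. Of the 28 pairs among the 8 members, 9 passed the threshold (Pearson r of log2(TPM + 1), 100000 permutations, 2-sided, Benjamini-Hochberg over 12866 genes for each member, with the larger of both adjusted p below 0.05). Of these, 7 were positive and 2 negative. Umod and Slc12a1 rose and fell together, with r = 0.91 and Spearman's rho = 0.91 (permutation test, adjusted p = 0.00230). A second set held Slc12a3, Kcnj10, Wnk4 and Bsnd, whose 6 pairs all passed. In it r was 0.81 for Slc12a3 with Kcnj10, 0.80 for Slc12a3 with Wnk4, 0.79 for Bsnd with Slc12a3 and with Wnk4, 0.75 for Kcnj10 with Wnk4 and 0.71 for Bsnd with Kcnj10. Bsnd, listed here for the thick ascending limb, had r of -0.28 with Slc12a1 and -0.27 with Umod, neither past the threshold. Barttin is also known from intercalated cells of the collecting duct. Of 6 intercalated cell markers, 4 correlated positively with Bsnd, where 10.4% of all genes did. Among the 4 were Atp6v1b1 at 0.89 and Slc26a4 at 0.82. The median r of the 6 was 0.73 against 0.30 over all genes. On log2 CPM 3 of the 6 passed, where 1.28% of all genes were positive, at a median of 0.67 against 0.016. With values centred on the group mean 1 of the 6 passed, where 3.51% of all genes were positive, at a median of 0.59 against 0.33. The part of intercalated cells in the relation of Bsnd to the distal convoluted tubule genes was not tested.

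The 2 sets ran against each other in Slc12a3. Its r was -0.57 with Umod (rho = -0.54, permutation adjusted p = 0.0253) and -0.61 with Slc12a1 (rho = -0.49, permutation adjusted p = 0.0329, and 0.118 for rho). These 2 relations did not hold in every setting. Within groups, with values centred on the group mean, r was -0.55 (adjusted p = 0.0951) and -0.54 (adjusted p = 0.213). Without the 2 rats farthest from the median of the anchor gene r was -0.48 (adjusted p = 0.110) and -0.64 (adjusted p = 0.140). Without the 4 i.v. ASC rats with urothelial markers it was -0.52 (adjusted p = 0.0938) and -0.50 (adjusted p = 0.169). Neither passed the threshold in these settings, while r stayed between -0.48 and -0.64. The 7 positive pairs passed in each of these 3 settings. On log2 CPM, the count scaled to the library size with its TMM normalization factor, 7 pairs passed, 5 positive and 2 negative. Bsnd and Kcnj10 (r = 0.51) and Kcnj10 and Wnk4 (r = 0.47) did not pass there.

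**Figure D3:**
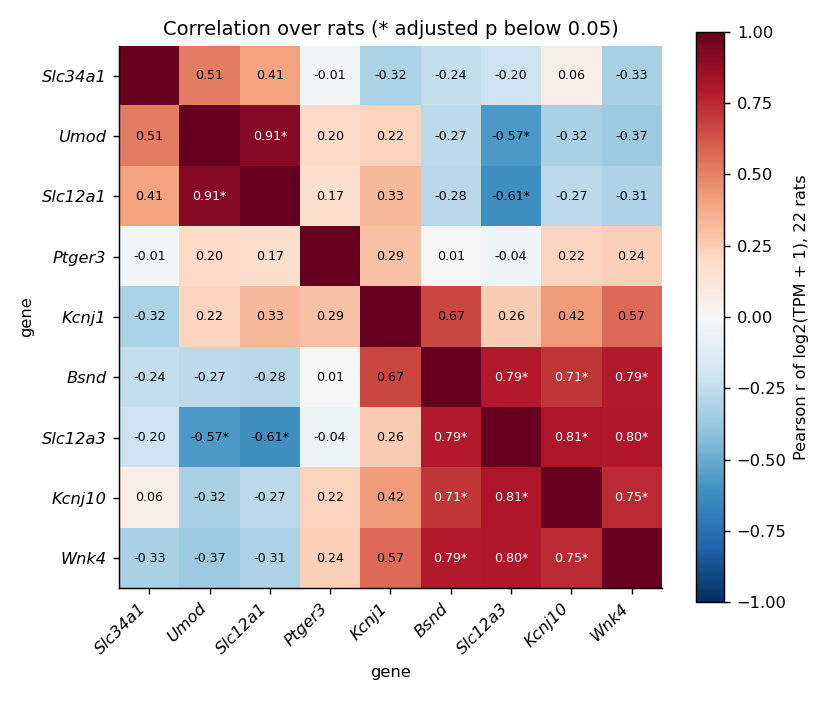
Pearson r of log2(TPM + 1) over 22 rats between 8 members and Slc34a1 (both axes, colour from -1 in blue to 1 in red, stars for an adjusted p below 0.05). Umod and Slc12a1 form 1 block at r = 0.91, Bsnd, Slc12a3, Kcnj10 and Wnk4 another with r from 0.71 to 0.81.

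The share of all genes that passed with each member puts these counts in place. It was 31.5% for Umod, 10.8% for Slc12a1 (5.81% positive and 4.98% negative), 0.762% for Kcnj1, 11.9% for Bsnd, 42.3% for Slc12a3 (34.9% positive and 7.4% negative), 50.2% for Kcnj10, 43.2% for Wnk4 and 0% for Ptger3. A partner past the threshold was thus common for Slc12a3, Kcnj10 and Wnk4 and rare for Kcnj1. On log2 CPM the share was 36.9% for Umod, 22.5% for Slc12a1, 24.9% for Slc12a3, 31.6% for Kcnj10, 1.38% for Bsnd and 0.987% for Wnk4, and the scale also moved the split by sign. For Slc12a3 it was 11.4% positive and 13.5% negative on log2 CPM, for Kcnj10 16.2% and 15.4% against 45.9% and 4.34% on log2 TPM, and for Umod 18.5% and 18.4% against 9.54% and 21.9%.

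Kcnj1 and Ptger3 stood outside both sets. The nearest partner of Kcnj1 among the members was Bsnd, at r = 0.67 (rho = 0.73, permutation adjusted p = 0.0638 for r and 0.0362 for rho). The highest r of Ptger3 with a member was 0.29, with Kcnj1, and no gene of the 12866 passed the threshold with it, on log2 CPM either.

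The balance of both cotransporters was taken as the ratio of Slc12a3 to Slc12a1 TPM in each rat. It was 2.20, 3.89 and 5.86 as lowest, median and highest in untreated rats, 1.01, 2.10 and 4.62 after i.p. ASC, and 0.290, 1.49 and 5.72 after i.v. ASC. The ASC CM rats 2, 11, 19 and 21 had 0.341, 0.495, 2.54 and 3.24. All untreated rats had at least 2.20 times as much Slc12a3 as Slc12a1, and 1 i.v. ASC rat (13) and 2 ASC CM rats (2 and 11) had less Slc12a3 than Slc12a1. The mean log2 ratio differed from that of untreated rats by -0.84 after i.p. ASC, by -1.19 after i.v. ASC and by -1.76 after ASC CM. In 2-sided exact permutation tests the p was 0.0866, 0.0909 and 0.0762, each 0.0909 after adjustment over the 3 comparisons, where the design could reach 0.00216, 0.00216 and 0.00952. Without i.v. ASC rat 13 the i.v. ASC difference was -0.70, and without all 4 i.v. ASC rats with urothelial markers it was 0.41, in the other direction.

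**Figure D4:**
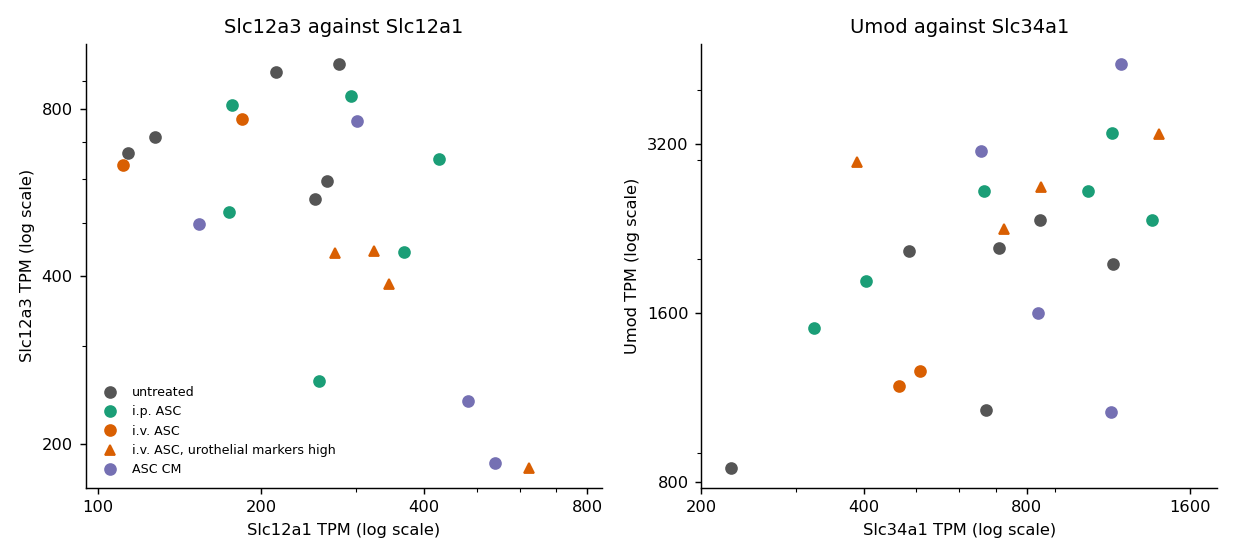
TPM of Slc12a3 against Slc12a1 (left) and of Umod against Slc34a1 (right), both axes on log scales, 1 point per rat, colours for groups and triangles for i.v. ASC rats with high urothelial markers. Slc12a3 is lowest in the 3 rats with the highest Slc12a1 (r = -0.61), and Umod against Slc34a1 has r = 0.51.

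Slc34a1, the sodium-phosphate cotransporter of the proximal tubule, gave the comparison with the segment upstream. It had 227, 691 and 1156 TPM as lowest, median and highest in untreated rats, 323, 851 and 1363 TPM after i.p. ASC, 389, 617 and 1405 TPM after i.v. ASC, and 1195, 658, 840 and 1146 TPM in ASC CM rats 2, 11, 19 and 21. Of the 8 members, 0 correlated with it past the threshold, against 15.7% of all genes. Umod had the highest r, 0.51 (rho = 0.47, permutation p = 0.0147, adjusted p = 0.0748), and Slc12a1 followed with 0.41 (rho = 0.38, adjusted p = 0.189). Adjusted over the genes tested against Umod in place of Slc34a1, the same relation had an adjusted p of 0.0465. The r of Umod with Slc34a1 was 0.50 within groups, 0.32 without the 2 rats farthest from the Slc34a1 median, 0.37 without untreated rat 1, 0.64 without ASC CM rat 21 (adjusted p = 0.0152) and 0.57 on log2 CPM (adjusted p = 0.0305). The second set had r of -0.20 for Slc12a3, -0.24 for Bsnd, -0.33 for Wnk4 and 0.06 for Kcnj10. Kcnj1 had -0.32 and Ptger3 -0.01. Of 9 further proximal tubule markers, 6 correlated positively with Slc34a1, among them Slc22a6 at 0.96 and Lrp2 at 0.87.

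The genes whose levels were most like those of each member were taken as the 3 with the highest r over the 22 rats. For Slc12a1 they were Sim2 (0.96), Irx1 (0.95) and Irx2 (0.95), and for Umod Phyh (0.92), Irx1 (0.92) and Ppp1r1a (0.91). For Slc12a3 they were Cnnm2 (0.95), Tmem52b (0.95) and the kinase gene Wnk1 (0.94). For Kcnj10 they were Kl (0.95), Adcy1 (0.94) and Car12 (0.94), and for Wnk4 they included Arsl (0.91) and Septin5 (0.90). For Bsnd they included Tmprss2 (0.95) and Scnn1a (0.91), a subunit of the epithelial sodium channel. Kcnj1 went with Galnt18 (0.90), Muc1 (0.86) and Epn3 (0.86). For Ptger3 the nearest were Prss53, Ptpdc1 and Mtmr7 at 0.62 each, with an adjusted p of 0.997.

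Of 15 other thick ascending limb genes, 7 correlated positively with Slc12a1 and 0 negatively, where 5.81% and 4.98% of all genes did. Among the 7 were Irx1 and Irx2, the tight junction genes Cldn10 (r = 0.88), Cldn19 (0.76) and Cldn16 (0.75) and the transcription factor gene Pou3f3 (0.65). The median r of the 15 was 0.56, against -0.16 over all genes. On log2 CPM 9 passed, all positive, where 12.6% of all genes were positive. With values centred on the group mean 4 passed, all positive, where 0.933% of all genes were positive. With Slc12a3, 3 of the 15 were positive and 3 negative, where 34.9% and 7.4% of all genes were. Positive were among others the sodium-proton exchanger gene Slc9a2 (0.75) and the potassium channel gene Kcnj16 (0.64). Negative were Cldn10 (-0.82), Irx1 (-0.75) and Irx2 (-0.74). Slc9a2 and Kcnj16 are also known from the distal convoluted tubule. On log2 CPM the counts with Slc12a3 were 2 positive and 6 negative, where 11.4% and 13.5% of all genes were.

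Of 10 other distal convoluted and connecting tubule genes, 7 correlated positively with Slc12a3, where 34.9% of all genes did. The 7 were Cnnm2, Sall3 (0.92), the calcium channel gene Trpv5 (0.91), the sodium-calcium exchanger gene Slc8a1 (0.91), the calbindin gene Calb1 (0.90), the kallikrein gene Klk1 (0.86) and the calcium pump gene Atp2b1 (0.50). The calcium-binding S100g (-0.65) and the phosphatase inhibitor gene Ppp1r1a (-0.56) correlated negatively, where 7.4% of all genes did. With values centred on the group mean, 6 of the 10 were positive and 0 negative, where 17.9% and 2.94% of all genes were. On log2 TPM the median r was 0.88 against 0.37 over all genes. On log2 CPM 6 were positive and 2 negative, where 11.4% and 13.5% of all genes were, with a median of 0.86 against 0.06. With Slc12a1, Ppp1r1a was positive (0.86) and Trpv5 negative (-0.73), and the other 8 did not pass. On log2 CPM 1 was positive and 5 were negative with Slc12a1, at a median r of -0.55. Of all genes, 12.6% were positive and 9.84% negative with Slc12a1 on log2 CPM, and 5.81% and 4.98% on log2 TPM.

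**Figure D5:**
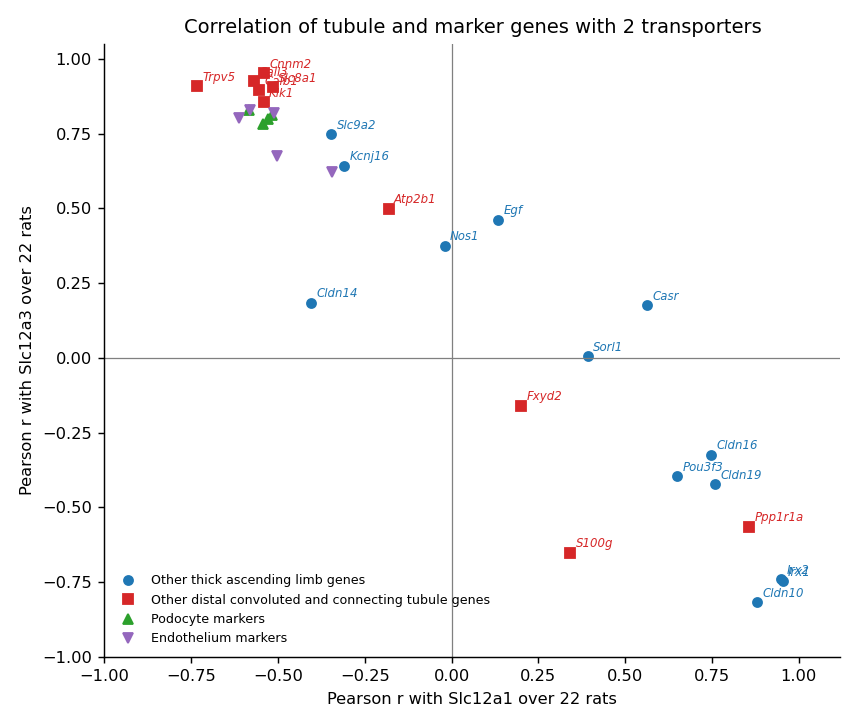
Pearson r over 22 rats with Slc12a1 (horizontal axis) and with Slc12a3 (vertical axis) for thick ascending limb genes, distal convoluted and connecting tubule genes, podocyte markers and endothelium markers, 1 point per gene reported here. Cnnm2, Trpv5, Calb1, podocyte and endothelium markers lie at upper left, and Irx1, Irx2 and Cldn10 at lower right.

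The genes of the WNK-SPAK pathway and of mineralocorticoid control set the activity of NCC. Of 10 of them, 6 correlated positively with Slc12a3 and 0 negatively, where 34.9% and 7.4% of all genes did. The 6 were Wnk1, Hsd11b2 (0.79), which shields the mineralocorticoid receptor from glucocorticoids, the SPAK gene Stk39 (0.70), the receptor gene Nr3c2 (0.67), Sgk1 (0.65) and Oxsr1 (0.63). The median r of the 10 was 0.64 against 0.37 over all genes. With Slc12a1 0 of the 10 passed, and the median r was -0.18 against -0.16 over all genes. On log2 CPM, 5 were positive and 2 negative with Slc12a3, where 11.4% and 13.5% of all genes were. Of 10 genes of prostaglandin E2 synthesis, transport and reception other than Ptger3, 5 were positive with Slc12a3 (Ptgs2 at 0.83, Ptger4 at 0.75, Ptger1 at 0.66, Ptger2 at 0.65 and Ptges at 0.62) and Hpgd, which degrades prostaglandins, was negative (-0.74), where 34.9% of all genes were positive with Slc12a3. On log2 CPM these counts were 2 and 2, at a median r of 0.19 against 0.06 over all genes. With Slc12a1, Hpgd (0.68) and Slco2a1 (0.60) were positive and Ptger2 and Ptger4 (-0.62 each) negative. With Slc34a1, Ptges and Ptgs1 were negative (-0.56 and -0.55), and on log2 CPM 0 of the 10 were. None of the 10 correlated with Ptger3.

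Markers of other cells moved with Slc12a3. All 5 podocyte markers (among them Nphs1, Podxl, Wt1 and Synpo) and all 5 endothelium markers (Pecam1, Kdr, Emcn, Cdh5 and Flt1) correlated positively with Slc12a3, at median r of 0.81 and 0.80 against 0.37 over all genes. With Umod all 10 correlated negatively, at median r of -0.60 and -0.66 against -0.28, where 21.9% of all genes were negative. With values centred on the group mean, 0 podocyte and 2 endothelium markers passed with Umod. Without the 4 i.v. ASC rats with urothelial markers, 1 and 3 did. The share of all genes negative with Umod was 11.1% and 10.6% in these settings. With Slc12a1, 2 of 5 were negative in each list on log2 TPM, 5 and 4 on log2 CPM, and 0 and 0 with values centred on the group mean. The share of all genes negative with Slc12a1 was 4.98%, 9.84% and 0.389% in the same order. On log2 CPM 5 podocyte and 4 endothelium markers were positive with Slc12a3. With Kcnj10 the counts were 5 and 5 on log2 TPM and 5 and 4 on log2 CPM. With Bsnd they were 5 and 3, and with Wnk4 5 and 4, and on log2 CPM 0 and 0 for both genes. On log2 TPM, 34.9% of all genes were positive with Slc12a3, 45.9% with Kcnj10, 10.4% with Bsnd and 36.2% with Wnk4. On log2 CPM these shares were 11.4%, 16.2%, 1.28% and 0.793%. The summed TPM of the podocyte markers ran from 160 to 358.5 in untreated rats, 120 to 289.5 after i.p. ASC, 59.1 to 291 after i.v. ASC and 54.7 to 300 after ASC CM. For the endothelium markers it ran from 174 to 248, 111 to 249, 75.5 to 243 and 98.8 to 251 TPM. The part of these cell types in the correlations of the tubule genes was not tested.

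For the other marker lists the counts with Slc12a3 were 3 positive and 2 negative of 10 proximal tubule, 2 and 1 of 7 principal cell, 2 and 0 of 6 intercalated cell, 1 and 0 of 5 fibroblast, 1 and 0 of 5 leukocyte, 0 of 4 injured tubule and 0 of 5 urothelium markers. Of all genes, 34.9% were positive and 7.4% negative with Slc12a3. With Slc12a1, 1 proximal tubule marker was positive and 3 negative, 2 principal cell markers were positive, 1 intercalated cell marker was positive and 1 negative, 3 injured tubule markers were negative, and no fibroblast, leukocyte or urothelium marker passed. Of all genes, 5.81% were positive and 4.98% negative with Slc12a1. The 3 negative injured tubule markers became 0 on log2 CPM and 0 with values centred on the group mean. In these settings 9.84% and 0.389% of all genes were negative. Without the 4 i.v. ASC rats with urothelial markers 2 were negative. With Umod, 3 proximal tubule markers were positive and 3 negative, and 1 principal cell, 1 intercalated cell and 1 urothelium marker were positive. Negative with Umod were 4 of 5 fibroblast, 4 of 5 leukocyte and 3 of 4 injured tubule markers, with 0 positive. Their median r was -0.56, -0.56 and -0.62, where 21.9% of all genes were negative with Umod. These counts were 5, 3 and 3 with values centred on the group mean, and 0, 2 and 2 without the 4 i.v. ASC rats with urothelial markers. On log2 CPM they were 4, 4 and 1, where 18.4% of all genes were negative with Umod. With Slc34a1, 3 of 4 injured tubule markers (Spp1, Lcn2 and Vcam1) and 1 of 5 leukocyte markers (Cd79b) were negative, and none of the principal cell, intercalated cell, urothelium or fibroblast markers passed. Of all genes, 6.7% were negative with Slc34a1. On log2 CPM 2 injured tubule markers and 1 leukocyte marker were negative with Slc34a1, where 10.7% of all genes were.

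None of these lists held a gene called by edgeR for a treatment. DESeq2 called 4 of 5 urothelium markers after i.v. ASC (Krt5, Upk1a, Upk1b and Upk3a) and no other gene of the lists, and limma called none. Among the thick ascending limb genes the smallest p was that of Cldn14 for i.p. ASC (log2 fold change -0.71 ± 0.18, SE), of Cldn10 for i.v. ASC (1.15 ± 0.46) and of Slc9a2 for ASC CM (-0.68 ± 0.18), with adjusted p of 0.771, 0.523 and 0.673. At an unadjusted p below 0.05 there were 1, 4 and 5 of 15, where the share of all genes was 3.89%, 8.81% and 6.6% in the same order. Among the distal convoluted and connecting tubule genes it was S100g for i.p. ASC (0.87 ± 0.43) and i.v. ASC (1.17 ± 0.42) and Calb1 for ASC CM (-1.09 ± 0.36), with 0, 4 and 5 of 10 past an unadjusted 0.05 and medians of -0.04, -0.34 and -0.55. For the WNK-SPAK and mineralocorticoid genes it was Oxsr1 (-0.08 ± 0.05), Cab39 (0.13 ± 0.05) and Hsd11b2 (-0.52 ± 0.16), with 0, 1 and 4 of 10. For the prostaglandin E2 genes it was Ptger1 (-0.17 ± 0.10), Ptger2 (-0.49 ± 0.25) and Ptges (-0.48 ± 0.17), with 0, 0 and 2 of 10. Among the markers of other cell types, past an unadjusted 0.05 were 4 of 6 intercalated cell markers after ASC CM (median log2 fold change -0.44). So were 3 of 7 principal cell markers after i.v. ASC (median 0.54) and 2 of 5 podocyte markers after i.v. ASC (median -0.68). After i.v. ASC, 5 of 5 urothelium (median 5.14) and 2 of 10 proximal tubule markers (median 0.18 over all 10) passed too. The 2 proximal tubule markers that passed were lower, with log2 fold changes of -1.165 and -1.066. After ASC CM, 2 of 5 fibroblast (median 0.50) and 2 of 7 principal cell markers (median -0.07 over all 7) did. The 2 principal cell markers that passed had -0.48 and -0.43. Fitted values of all 5 podocyte and all 5 endothelium markers were below 0 in each comparison. The part of these cells in the fold changes of the tubule genes was not tested. The edgeR adjusted p was 0.523 or more for each gene of this paragraph other than the urothelium markers, whose smallest was 0.142.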

How the data were processed

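The authors sequenced left kidney total RNA of 22 rats (BGISEQ-500). They deposited 2 values for each of 17334 rat Entrez genes per rat, an estimated count without normalization and TPM. The deposited estimated counts are read numbers, and the deposited TPM corrects them for transcript length and depth. The submitters' processing notes name Trim Galore 0.6.4, kallisto 0.4.6 and the build rn6, while the methods name DESeq2 and a human transcript package. Per rat, the TPM of all genes listed by the authors add up to 959754 to 968550.

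Estimated counts were rounded, since 14.1% were not whole, and total counts ran from 12195682 to 14734772 per rat. Symbols came from the RefSeq table of GRCr8, used for names and promoter windows only (17179 of 17334 genes matched, and the windows of all 10 members). Rats of 1 group always differed by more than sampling noise (chi-square per gene from 7.51 to 147).

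The main test was the quasi-likelihood F test of edgeR 4.0.16 (R 4.3.3) with TMM factors and filterByExpr. A single model held the 4 groups, and Benjamini-Hochberg adjustment ran over 12867 genes, with 0.05 as threshold. A prior count of 2 and the TMM factors were used for log2 CPM, while TPM was not adjusted by these factors. Correlations used Pearson's r of log2(TPM + 1) with 100000 permutations (smallest possible p 1e-05) in Python 3.11.15, and ratios a 2-sided exact permutation test. The edgeR and correlation steps were tested on simulated data. Rats are separate animals with no number shared between groups.

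Other settings tried were RLE size factors, DESeq2 1.42.0, only the 2 groups compared, no filter, a minimum of 10 counts in each rat, limma-trend (limma 3.58.1) on log2(TPM + 1), log2 CPM, a pseudocount of 0.1, TPM without logarithm, group-centred values, omission of the 2 farthest rats and of each rat in turn. Omission of the 4 i.v. ASC rats with urothelial markers, and the alternatives for the correlations among members, were added after the data were seen. The genes, lists and tests were chosen with earlier results of these data known. The rule for named genes took all members, Slc34a1, the 3 genes with the highest r with each member, and in each list discussed the genes past the threshold or, where none passed, the one with the smallest p. The lists come from general knowledge. Trpm6 was not analysed here, and some genes that the lists and the rule name are counted but not reported here by name.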

Additional observations from a re-analysis of the deposited data

Results flagged for a closer look

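Of 43 groups of values tested for a rat far from the others of its group, 4 stood out, where chance flags about 1 in 20 groups. For Pvalb, untreated rat 1 had 1.28 TPM while the other 5 untreated rats were at 0. For the same gene, i.v. ASC rat 8 had 2.81 TPM and the next i.v. ASC rat 0.315 TPM. Both values of Pvalb rest on 10 counts or fewer. Most rats of these groups were at 0 for Pvalb, so the rate of 1 in 20 does not apply to these flags.

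For Kcnj10, i.v. ASC rat 14 had 22.8 TPM against 11 TPM in the next i.v. ASC rat, and without it the log2 fold change of i.v. ASC was -1.11 in place of -0.85. For Ptger3, untreated rat 12 had 36.3 TPM, and the next untreated rat had 53.6 TPM.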

How the results depend on the processing

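No member passed the adjusted threshold for a treatment under any of the alternatives run, over which the smallest adjusted p among 696 member fold changes was 0.237. The number of genes called over the whole table did move. With DESeq2 it was 28 after i.v. ASC, 4 after ASC CM and 44 for any difference, with only the 2 groups it was 1 for ASC CM, and for any difference (11 in the report) it was 0 with limma and 0 where each rat had to reach 10 counts. Without the 4 i.v. ASC rats with urothelial markers it was 1 for ASC CM and 0 for any difference, the log2 fold changes of i.v. ASC reversed to -0.44 for Umod and -0.49 for Slc12a1, and the log2 ratio difference of i.v. ASC reversed to 0.41. With each rat left out in turn the number called ran from 0 to 14 for i.v. ASC (11 without i.v. ASC rat 8 and 14 without rat 14), from 0 to 2 for ASC CM (2 without i.v. ASC rat 9) and from 0 to 18 for any difference (5 without i.v. ASC rat 3, 0 without rat 9, 5 without rat 13 and 18 without rat 14).

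Fold changes near 0 changed sign. Limma on log2(TPM + 1) gave Ptger3 -0.016 with i.p. ASC and -0.042 with ASC CM, and it moved the median of all genes to -0.10 with i.p. ASC, -0.12 with i.v. ASC and -0.07 with ASC CM. With each rat left out the i.p. ASC value ran from -0.12 to 0.018 for Bsnd, from -0.10 to 0.058 for Kcnj1, from -0.0066 to 0.13 for Ptger3 and from -0.11 to 0.028 for Wnk4. The i.v. ASC value of Kcnj1 ran from -0.11 to 0.031 and the ASC CM value of Ptger3 from -0.098 to 0.13.

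The number of members correlated with Slc34a1 was 1 on log2 CPM (Umod) and from 0 to 2 with each rat left out. For Kcnj10 the r with Slc34a1 was -0.027 on log2 CPM and from -0.022 to 0.15 with each rat left out. For Ptger3 it was 0.093 on log2 CPM, 0.0046 without the 2 rats farthest from the median, 0.11 without the 4 i.v. ASC rats and from -0.10 to 0.090 with each rat left out. Of the pairs of members, between 7 and 9 of 28 passed in each setting. No paired analysis was possible because the groups share no animal number. Counts of 10 or fewer limit Pvalb.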
